A study of Mus musculus with 6 samples.

Results

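The genes described here are 52 genes of the lysosome, chosen by symbol from the deposited count table of 34745 genes. They comprise 14 proteases (cathepsins, legumain and tripeptidyl peptidase), 15 glycosidases and sulfatases, 6 lipid hydrolases and their protein cofactors, 5 membrane proteins and 12 genes of the proton pump. All 52 were found in the table and all passed the filter on low counts. RNA sequencing was carried out on wild-type mouse bone marrow-derived macrophages, primary cells grown from marrow with 20 ng/ml of the growth factor M-CSF. Every library came from cells given R848, a small-molecule agonist of endosomal Toll-like receptors, at 100 ng/ml for 6 h. The control group of 3 libraries had first received DMSO, and the other group of 3 had first received an inhibitor of KAT8, a lysine acetyltransferase best known for acetylating histone H4. The labels name neither the inhibitor nor its dose or length of pretreatment, and do not say whether replicates came from separate animals. All comparisons are between stimulated cells, and the p-values cover only variation among these 6 libraries, which may be technical in origin.

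Lysosomes are acidic organelles in which proteins, glycans, lipids and nucleic acids are broken down, and they are abundant in macrophages, which take up particles and dying cells. Their soluble enzymes are carried from the Golgi by mannose 6-phosphate receptors, and their lumen is acidified by the vacuolar-type ATPase (V-ATPase), in which a cytosolic V1 sector splits ATP and a membrane V0 sector carries protons. Many lysosomal genes are controlled by the transcription factors TFEB, TFE3, MITF and TFEC, which bind E-box sequences near start sites. The endosomal receptors for R848 also need acid compartments and lysosomal proteases to work.

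Library totals ranged from 18441352 to 25089320 counts, and the 52 genes together made up 6.4% to 6.89% of each total. Levels are given as CPM, the counts of a gene relative to the library total after TMM scaling, as mean ± SD with n = 3. Genes were called at an adjusted p under 0.05 in edgeR's quasi-likelihood test. All 8 macrophage markers were detected, and Csf1r, the M-CSF receptor, was at 474 ± 30.2 CPM with DMSO and 463 ± 4.9 CPM with the inhibitor. Of these 8, 6 were lower with the inhibitor, while Csf1r and Cd68 (1504 to 1673 CPM) were not called. The summed level of all 8 was 11861 to 13535 CPM with DMSO and 7562 to 7640 CPM with the inhibitor. Most of that sum came from Lyz2, which fell from 8596 to 4190 CPM. Markers of stromal cells were detected too, and 8 of 9 were lower with the inhibitor, with a summed level of 4149 to 4904 CPM in the DMSO libraries and 1621 to 1722 CPM in the inhibitor libraries. Among markers of osteoclasts, which share lysosomal genes with macrophages, 3 of 7 tested were higher and 1 was lower, and Calcr and Oscar were below 0.2 CPM in both groups. Their summed level was 628 to 741 CPM with DMSO and 458 to 485 CPM with the inhibitor, most of it from Acp5, itself a lysosomal enzyme. Without Acp5 the order turned, with 65.7 to 66.9 CPM for the other 8 markers after DMSO and 102 to 113 CPM after the inhibitor. Most of this difference came from Itgb3, which rose from 21.9 to 53.35 CPM, and Tnfrsf11a rose from 16.25 to 23.6 CPM. Dcstamp (4.38 to 4.04 CPM), Car2 (2.18 to 1.56 CPM) and Nfatc1 (21.2 to 23.8 CPM) were not called. Of 7 neutrophil markers S100a9, Ly6g and Elane were at 0 in all libraries, while S100a8 (5.55 to 2.10 CPM) and Camp (1.08 to 0.169 CPM) were detected and fell, and the summed level was 6.41 to 7.16 CPM with DMSO and 2.08 to 2.93 CPM with the inhibitor. Of 6 dendritic cell markers Siglech was at 0, and Zbtb46, the only one tested, fell from 16.8 to 9.645 CPM, with a summed level of 15.7 to 17.6 CPM and 9.38 to 10.4 CPM. The T cell marker Cd3d was at 0 in all libraries. In bulk RNA, fewer cells of a type and less RNA per cell cannot be told apart, and the part of these other cell types in the results below was not tested.

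With the inhibitor, 21 of the 52 lysosomal genes were lower, 12 were higher and 19 were not called, whereas scaling by library totals alone gave 15 lower and 17 higher. Together 63.5% were called, against 51.5% of the 13815 tested genes (24.9% higher and 26.5% lower) and 56.1% of those at a mean of at least 5 CPM. Of all tested genes, library totals alone gave 35.4% higher and 20.6% lower, the background for the library-total counts below. Lysosomal hydrolases were mostly lower: of 35 proteases, glycosidases, sulfatases, lipid hydrolases and cofactors, 18 fell and 7 rose, a split that library totals alone narrowed to 13 and 11. Among proton pump genes 5 rose and 1 fell. Changes were small, with a median absolute log2 fold change of 0.21 for the 52. It was 0.30 for all tested genes and 0.25 for those at a mean of at least 5 CPM. Only Lipa, which rose, and Naglu, which fell, were called with at least a 2-fold difference, a size reached upward by 3.14% and downward by 6.86% of all tested genes (10% together) and by 6.34% of those at a mean of at least 5 CPM. Over the 52 genes the median log2 fold change came to −0.12, against 0.01 for all tested genes, and with library totals these values were −0.01 and 0.12. Every value of one group lay above or below all values of the other for 35 of the 52, against 60.6% of all tested genes. Of the 36 lysosomal genes whose exons overlap no other annotated gene, 14 fell and 9 rose, and with library totals 11 fell and 12 rose. DMSO replicate 1 was the lowest of its group for 42 of the 52 genes, and without it 25 fell and 11 rose.

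**Figure D1:**
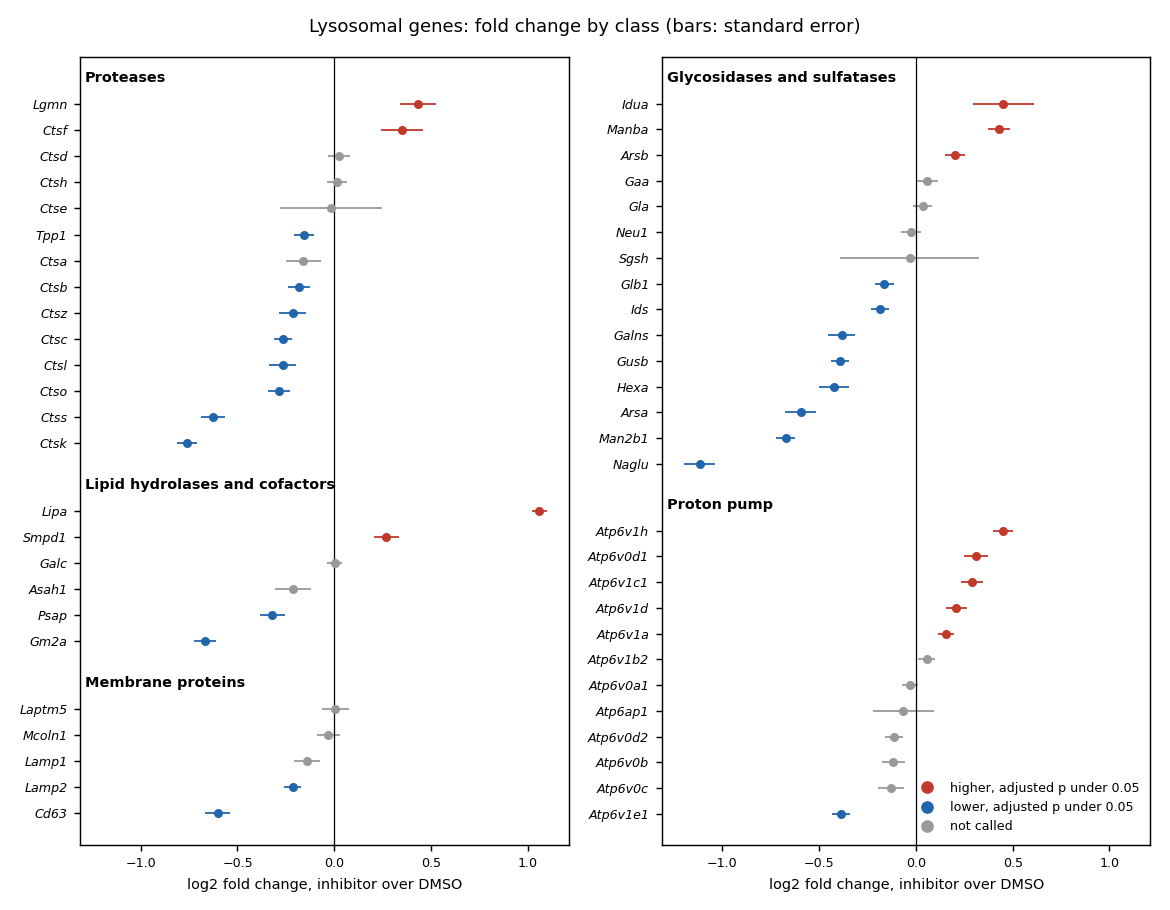
Log2 fold change of inhibitor over DMSO for the 52 lysosomal genes, grouped by class, with bars for the standard error and colour for the call in edgeR with TMM scaling. Most called hydrolases lie left of 0 (18 lower, 7 higher, or 13 and 11 with library totals) and most called pump genes lie right of it (5 higher, 1 lower). Library totals alone move all values to the right by about 0.11, and give 20.6% lower and 35.4% higher of all tested genes.

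The promoters of these genes were read from RefSeq (GRCm38.p6, the mm10 build) as windows from 250 bases before to 50 bases after each start site, and 43 of the 52 genes had at least 1 window. The E-box CACGTG, which reads the same on both strands and forms the core of the sequence bound by TFEB and its relatives, was present in 16 of the 43 (37.2%). It was present in 11.6% of 10385 tested genes with a window, in 8.09% of all 27025 genes with one and in 7.15% of all 32851 windows. The longer form TCACGTGA, which contains the E-box and is also palindromic, was found in 6 of the 43 (14.0%), against 2.14% of tested genes and 0.974% of all windows. The same palindrome with a further G before it and C after it was in none of the 43 and in 0.78% of tested genes. The E-box was in 4 of 10 lysosomal genes that rose, 4 of 19 that fell and 8 of 14 that were not called. The 6 genes with TCACGTGA were Atp6v0d1 and Atp6v1a, which rose, and Ctsa, Ctsd, Gla and Mcoln1, which were not called. These matches are descriptions of sequence and do not show binding.

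Of the 6 promoters printed here, those of Lipa and Naglu are shown because these genes had the largest rise and the largest fall. Those of Atp6v0d1 and Atp6v1a are shown because they hold TCACGTGA in genes that rose. Those of Mcoln1 and Lamp1 are shown because they hold several E-boxes in genes that were not called. Each is given 5′ to 3′ on the gene's strand, with CACGTG or TCACGTGA in capitals.
Lipa (chr19:34527425-34527724, minus strand): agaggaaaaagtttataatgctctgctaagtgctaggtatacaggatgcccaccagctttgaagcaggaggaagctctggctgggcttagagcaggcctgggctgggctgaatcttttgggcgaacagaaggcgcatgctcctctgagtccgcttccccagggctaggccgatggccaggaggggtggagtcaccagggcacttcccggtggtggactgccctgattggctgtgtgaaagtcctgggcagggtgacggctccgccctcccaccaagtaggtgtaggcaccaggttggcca
Naglu (chr11:101069844-101070143, plus strand): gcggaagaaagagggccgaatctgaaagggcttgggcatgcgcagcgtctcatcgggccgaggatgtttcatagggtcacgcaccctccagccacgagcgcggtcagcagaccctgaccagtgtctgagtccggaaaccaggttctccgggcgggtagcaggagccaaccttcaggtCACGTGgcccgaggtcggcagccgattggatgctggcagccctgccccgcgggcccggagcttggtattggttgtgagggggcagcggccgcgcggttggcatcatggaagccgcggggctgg
Atp6v0d1 (chr8:105566015-105566314, minus strand): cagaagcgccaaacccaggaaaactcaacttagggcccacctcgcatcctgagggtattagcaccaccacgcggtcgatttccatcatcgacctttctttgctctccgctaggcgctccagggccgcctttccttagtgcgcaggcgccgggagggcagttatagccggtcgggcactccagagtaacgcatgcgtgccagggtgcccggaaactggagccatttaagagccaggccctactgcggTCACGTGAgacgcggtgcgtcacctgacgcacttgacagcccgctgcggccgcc
Atp6v1a (chr16:44139210-44139509, minus strand): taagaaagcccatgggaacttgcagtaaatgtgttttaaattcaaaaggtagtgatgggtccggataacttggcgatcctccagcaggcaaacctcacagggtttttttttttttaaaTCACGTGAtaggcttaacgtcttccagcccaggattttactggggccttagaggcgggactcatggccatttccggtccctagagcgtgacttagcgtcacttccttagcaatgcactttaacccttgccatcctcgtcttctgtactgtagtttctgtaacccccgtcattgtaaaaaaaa
Mcoln1 (chr8:3500269-3500568, plus strand): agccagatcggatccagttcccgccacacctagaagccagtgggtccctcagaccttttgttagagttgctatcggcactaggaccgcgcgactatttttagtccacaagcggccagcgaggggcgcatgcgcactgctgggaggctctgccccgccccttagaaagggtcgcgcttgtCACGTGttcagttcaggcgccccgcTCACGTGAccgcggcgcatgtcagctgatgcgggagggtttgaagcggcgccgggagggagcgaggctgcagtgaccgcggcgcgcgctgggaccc
Lamp1 (chr8:13158911-13159210, plus strand): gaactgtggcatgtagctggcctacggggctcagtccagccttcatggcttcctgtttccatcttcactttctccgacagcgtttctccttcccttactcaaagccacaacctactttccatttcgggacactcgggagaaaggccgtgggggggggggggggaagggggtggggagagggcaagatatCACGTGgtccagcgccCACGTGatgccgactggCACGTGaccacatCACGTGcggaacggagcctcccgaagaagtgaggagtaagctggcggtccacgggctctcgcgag
The Lipa window holds no CACGTG. In Naglu the E-box begins 73 bases before the start site. In Atp6v0d1 TCACGTGA begins 4 bases before the start site and runs across it, and in Atp6v1a it begins 132 bases before. Mcoln1 has an E-box 71 bases and TCACGTGA 46 bases before its start, and Lamp1 has 4 E-boxes, at 61, 45, 28 and 15 bases before.

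Lysosomal proteases were mostly lower with the inhibitor: 8 of 14 fell and 2 rose, against 26.5% lower and 24.9% higher of all tested genes, with a median log2 fold change of −0.17. With library totals 5 fell and 3 rose, against 20.6% lower and 35.4% higher of all tested genes. Of the 9 cysteine cathepsins 7 fell, and 5 did so with library totals. Cathepsin K (Ctsk), a strong collagenase and elastase, was at 176, 189 and 197 CPM after DMSO and 112.5, 107 and 112 CPM after the inhibitor. All 3 inhibitor values were below all DMSO values, and the log2 fold change was −0.76 (SE 0.052, adjusted p = 1.14e-05). Ctsk is expressed by osteoclasts and fibroblasts as well as by macrophages. Stromal (8 of 9) and macrophage (6 of 8) markers mostly fell too, while 3 of 7 tested osteoclast markers rose and 1 fell. The part of each cell type in the fall of Ctsk was not tested. Cathepsin S (Ctss), which cleaves the invariant chain of MHC class II in antigen-presenting cells, was at 4604, 4293 and 4736.5 CPM with DMSO and 3082, 3034 and 2713.5 CPM with the inhibitor. Its groups did not overlap either, and its log2 fold change was −0.63 (SE 0.064, adjusted p = 9.63e-05). Ctsk (ENSMUSG00000028111) and Ctss (ENSMUSG00000038642) are neighbours on the plus strand of chromosome 3, from 95499256 to 95509362 and 95526786 to 95556403 in mm10.

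Other cysteine cathepsins fell by less. Ctso (−0.29), Ctsl (−0.27) and Ctsc (−0.27), the activator of granule serine proteases, had adjusted p-values of 0.00337, 0.0112 and 0.00215. Ctsz (−0.21) and Ctsb (−0.18), the latter at 12791 ± 466 CPM with DMSO, were called at adjusted p = 0.0326 and 0.0284. The call was lost with library totals for Ctsb, Ctsz and the peptidase gene Tpp1 (−0.16). For Ctsb it was also lost without DMSO replicate 3 or any 1 inhibitor library (adjusted p = 0.056 to 0.109). For Ctsz it was lost without any 1 library other than DMSO replicate 1 (adjusted p = 0.0694 to 0.0996). For Tpp1 it was lost without DMSO replicate 2 or 3 or inhibitor replicate 1 or 3 (adjusted p = 0.0601 to 0.119). These were the smallest falls called among the proteases. Exons of Ctsb share 774 bases with Fdft1, a cholesterol synthesis gene on the opposite strand that fell by 1.80 on the log2 scale from 137 to 39.4 CPM, and whether strand was used in counting is not known.

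Legumain (Lgmn), an asparaginyl endopeptidase that processes cathepsins, moved the other way. It was at 566, 727 and 713 CPM with DMSO and 858, 908 and 944 CPM with the inhibitor. Every inhibitor value exceeded every DMSO value (log2 fold change 0.43, SE 0.092, adjusted p = 0.00472). Lgmn (ENSMUSG00000021190) is a minus-strand gene of chromosome 12, from 102394084 to 102439813. The much rarer cathepsin F (Ctsf) was at 6.35, 6.60 and 7.76 CPM with DMSO and 8.51, 9.07 and 8.92 CPM with the inhibitor. Its rise (log2 fold change 0.35, SE 0.11, adjusted p = 0.026) was not called by DESeq2 (adjusted p = 0.0726). Its call was also lost without DMSO replicate 1 or 2 or inhibitor replicate 2 or 3 (adjusted p = 0.0676 to 0.0824). Cathepsin D (Ctsd), the main aspartic protease of the lysosome, was the most abundant of the 52 genes. Its values were 15216.5, 16801 and 16494 CPM with DMSO and 16548, 16562 and 16266 CPM with the inhibitor. The ranges overlapped, and the gene was not called (log2 fold change 0.03, SE 0.056, adjusted p = 0.73), although it was called higher with library totals (0.14, adjusted p = 0.0248). Of its exon length, 34.4% is shared with the gene model Gm49369 on the same strand. Also not called were the other aspartic protease, Ctse, at 1.13 ± 0.344 and 1.13 ± 0.0848 CPM, the aminopeptidase Ctsh (0.01) and the carboxypeptidase Ctsa (−0.16, or −0.26 without DMSO replicate 1, adjusted p = 0.0129), which shares exon bases with Pltp on the opposite strand.

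Among 15 glycosidases and sulfatases 8 fell and 3 rose, with a median log2 fold change of −0.16. With library totals 6 fell and 5 rose, against 20.6% lower and 35.4% higher of all tested genes. The share called was 73.3%, against 51.5% of all tested genes. Naglu, which removes N-acetylglucosamine from heparan sulfate, had the largest fall of the 52 genes. Its level was 178, 217 and 201 CPM after DMSO and 92.3, 97.2 and 84.9 CPM after the inhibitor. The highest inhibitor value was well under the lowest DMSO value, and the gene fell 2.17-fold (log2 fold change −1.12, SE 0.080, adjusted p = 1.35e-05). Naglu (ENSMUSG00000001751) is a plus-strand gene of chromosome 11, from 101070012 to 101077672, and its E-box is shown with the promoters. The lysosomal alpha-mannosidase gene Man2b1 was at 542, 596 and 577 CPM with DMSO and 354, 373 and 350.0 CPM with the inhibitor. Again the groups stood apart (log2 fold change −0.67, SE 0.049, adjusted p = 1.53e-05). Man2b1 (ENSMUSG00000005142) is on chromosome 8 (plus strand), from 85083270 to 85098282.

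Hexa, the alpha subunit of beta-hexosaminidase A, was the most abundant of this class per exon length. It was at 779, 954 and 811 CPM with DMSO and 645, 648 and 604 CPM with the inhibitor (log2 fold change −0.42, SE 0.076, adjusted p = 0.00204). The groups did not overlap, although the DMSO libraries were spread more widely than the inhibitor libraries. The sulfatases Arsa (−0.60), Galns (−0.38) and Ids (−0.19) also fell, as did beta-glucuronidase (Gusb, −0.39) and beta-galactosidase (Glb1, −0.16), while Ids and Glb1 lost their calls with library totals. Glb1 also lost its call without DMSO replicate 2 or 3 or inhibitor replicate 1 or 2 (adjusted p = 0.0506 to 0.0901). Of the enzymes that degrade heparan sulfate, Naglu, Gusb and Ids fell, Idua rose and Sgsh was not called.

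The rises of this class were those of Idua, Manba and Arsb. Idua, the alpha-L-iduronidase, was at 45.1, 45.3 and 28.5 CPM with DMSO and 54.2, 55.9 and 52.5 CPM with the inhibitor. DMSO replicate 3 was far below the other two, and the call (log2 fold change 0.45, SE 0.16, adjusted p = 0.0414) was lost without any 1 of the inhibitor libraries (adjusted p = 0.0704 to 0.0995). Without DMSO replicate 3 its log2 fold change was 0.26 (adjusted p = 0.0131). Manba, the beta-mannosidase, was at 47.4, 45.1 and 43.5 CPM with DMSO and 63.0, 61.7 and 58.1 CPM with the inhibitor (log2 fold change 0.43, SE 0.057, adjusted p = 0.000407). Its groups were tight and separate. Arsb, a sulfatase of dermatan and chondroitin sulfate, rose by 0.20 on the log2 scale (adjusted p = 0.0106). Gla, Gaa and Neu1 were not called, with log2 fold changes of 0.04, 0.06 and −0.03, and Gla and Gaa were called higher with library totals.

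Genes of lipid breakdown divided evenly, with 2 of 6 higher, 2 lower and 2 not called, and with library totals 3 higher and 2 lower. The share called was 66.7%, against 51.5% of all tested genes. Lipa encodes lysosomal acid lipase, which frees cholesterol and fatty acids from the esters of endocytosed lipoproteins. Its level was 703, 708 and 715 CPM after DMSO and 1453, 1489 and 1488 CPM after the inhibitor. Replicates differed by little and the groups were far apart, giving the largest rise and the smallest adjusted p of the 52 genes (2.08-fold, log2 fold change 1.06, SE 0.037, adjusted p = 5.44e-07). Lipa (ENSMUSG00000024781) is a minus-strand gene of chromosome 19, from 34492318 to 34527474. Smpd1, acid sphingomyelinase, was at 48.2, 55.1 and 54.9 CPM with DMSO and 65.6, 62.2 and 63.0 CPM with the inhibitor. It rose by less (log2 fold change 0.27, SE 0.063, adjusted p = 0.00778), again with no overlap between groups.

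Cofactors of sphingolipid breakdown were lower. Gm2a, the activator that presents GM2 ganglioside to beta-hexosaminidase A, was at 292, 333 and 325 CPM with DMSO and 204, 201 and 193 CPM with the inhibitor. The groups did not overlap (log2 fold change −0.67, SE 0.057, adjusted p = 3.52e-05). Psap, the precursor of the saposins, was at 12550, 14535 and 13293 CPM with DMSO and 11042, 10819 and 10474 CPM with the inhibitor (log2 fold change −0.32, SE 0.064, adjusted p = 0.00365). Galc, the galactosylceramidase, was at 111 ± 2.37 and 111 ± 1.49 CPM and was not called (log2 fold change 0.00, adjusted p = 0.978), although with library totals it was called higher (0.11, adjusted p = 0.0419). Acid ceramidase (Asah1) was at 340, 343 and 355 CPM with DMSO and 270, 350.5 and 277 CPM with the inhibitor. It was not called (log2 fold change −0.21, adjusted p = 0.0908), but without inhibitor replicate 2, the high value of that group, its log2 fold change was −0.34 (adjusted p = 0.00138).

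**Figure D2:**
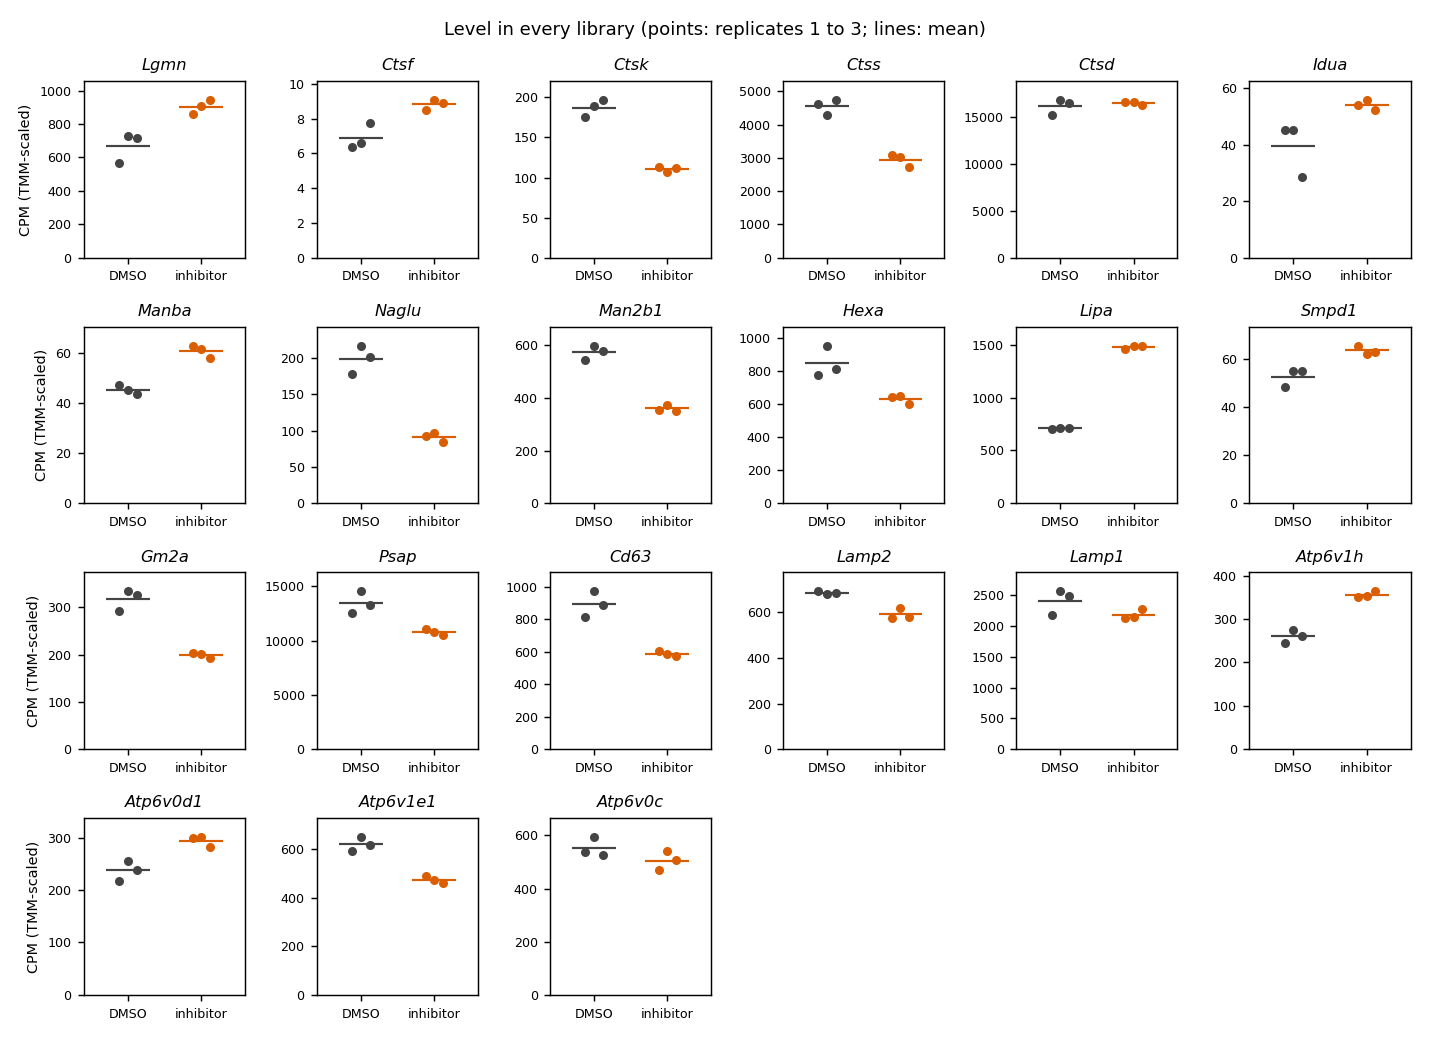
CPM in every library for the 21 lysosomal genes that are the most changed or most abundant of their class, with lines for the group means and axes that start at 0. Lipa rose from about 709 to 1477 CPM and Naglu fell from about 198.5 to 91.5 CPM with no overlap, whereas the values of Ctsd, Lamp1 and Atp6v0c overlap.

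Of the 5 membrane proteins 2 fell, none rose and 3 were not called, and with library totals 1 fell. The share called was 40.0%, against 51.5% of all tested genes. Cd63, a tetraspanin of late endosomes and secreted vesicles, was at 815, 972 and 890.5 CPM with DMSO and 602, 586.5 and 576 CPM with the inhibitor. The inhibitor libraries were all lower (log2 fold change −0.60, SE 0.064, adjusted p = 0.000119). Lamp2, a glycoprotein of the lysosomal membrane that also serves in autophagy, was at 692, 682 and 684 CPM with DMSO and 574, 620 and 578 CPM with the inhibitor (log2 fold change −0.22, SE 0.043, adjusted p = 0.00364), a call that was lost with library totals (−0.11, adjusted p = 0.0639). Lamp1, its close relative and the most abundant of the class, was at 2177.5, 2562 and 2484 CPM with DMSO and 2135, 2152 and 2268 CPM with the inhibitor. DMSO replicate 1 lay among the inhibitor values, and the gene was not called (−0.14, adjusted p = 0.107) unless that library was left out (−0.21, adjusted p = 0.00397). Mcoln1, the calcium channel TRPML1, was at 72.6 ± 5.36 and 71.0 ± 1.24 CPM and Laptm5, a lysosomal protein of blood cells, at 715 ± 70.7 and 717 ± 17.8 CPM, and neither was called.

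Of the 12 proton pump genes 5 rose and 1 fell, with a median log2 fold change of 0.01, and with library totals 6 rose and 1 fell. The 6 called of 12 were near the background of 51.5% called among all tested genes, of which 24.9% rose and 26.5% fell, or 35.4% and 20.6% with library totals. Of the 6 genes of the V1 sector 4 rose and 1 fell, and of the 5 of the V0 sector 1 rose. Atp6v1h, a regulatory subunit that couples the sectors, was at 245.5, 276 and 261 CPM with DMSO and 351, 353 and 364 CPM with the inhibitor. All inhibitor values were higher (log2 fold change 0.45, SE 0.050, adjusted p = 0.000152). The stalk subunits Atp6v1c1 (0.29, adjusted p = 0.00346) and Atp6v1d (0.21, adjusted p = 0.0128) and the catalytic subunit Atp6v1a (0.16, adjusted p = 0.0123) rose by less. The other core subunit of the ATP-splitting head, Atp6v1b2, was at 565 ± 21.6 and 587 ± 2.72 CPM and was not called, although with library totals it was called higher (0.16, adjusted p = 0.00557).

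Atp6v1e1, a peripheral stalk subunit, was the only pump gene called lower. It was at 595, 651 and 617 CPM with DMSO and 490.0, 473 and 461 CPM with the inhibitor. These values did not overlap (log2 fold change −0.39, SE 0.047, adjusted p = 0.000255). Atp6v1h (ENSMUSG00000033793) is a plus-strand gene of chromosome 1, from 5070018 to 5162529, and Atp6v1e1 (ENSMUSG00000019210) is on chromosome 6 (minus strand), from 120794305 to 120822793.

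In the V0 sector the ubiquitous d subunit, Atp6v0d1, was at 218, 256 and 238.5 CPM with DMSO and 300, 301 and 283 CPM with the inhibitor (log2 fold change 0.31, SE 0.062, adjusted p = 0.00339). Its isoform Atp6v0d2, enriched in osteoclasts and macrophages, was at 359.5, 389 and 368.5 CPM with DMSO and 344, 334 and 354 CPM with the inhibitor and was not called (log2 fold change −0.11, adjusted p = 0.0668). Per exon length, the ratio of Atp6v0d1 to Atp6v0d2 was 0.919, 0.995 and 0.981 after DMSO and 1.32, 1.37 and 1.21 after the inhibitor. The ratio was higher in all 3 inhibitor libraries. This follows from the values above, as neither gene overlapped between the groups and their directions were opposite. The pair was chosen after the values had been seen, so the ratio adds no support of its own. The proteolipid genes Atp6v0c and Atp6v0b were not called, with log2 fold changes of −0.13 and −0.12, and neither was Atp6v0a1 (−0.03). With DMSO, Atp6v0c was the most abundant of the 12 pump genes per exon length. It was at 538, 594 and 527 CPM with DMSO and 468, 541 and 507.5 CPM with the inhibitor, with overlapping groups. The accessory subunit gene Atp6ap1 was low in replicate 1 of each group, at 258, 379 and 379 CPM with DMSO and 269, 355 and 348 CPM with the inhibitor. Without DMSO replicate 1, Atp6v0b (−0.18, adjusted p = 0.0182) and Atp6v0d2 (−0.14, adjusted p = 0.0276) were also called lower, which gave 3 lower pump genes.

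**Figure D3:**
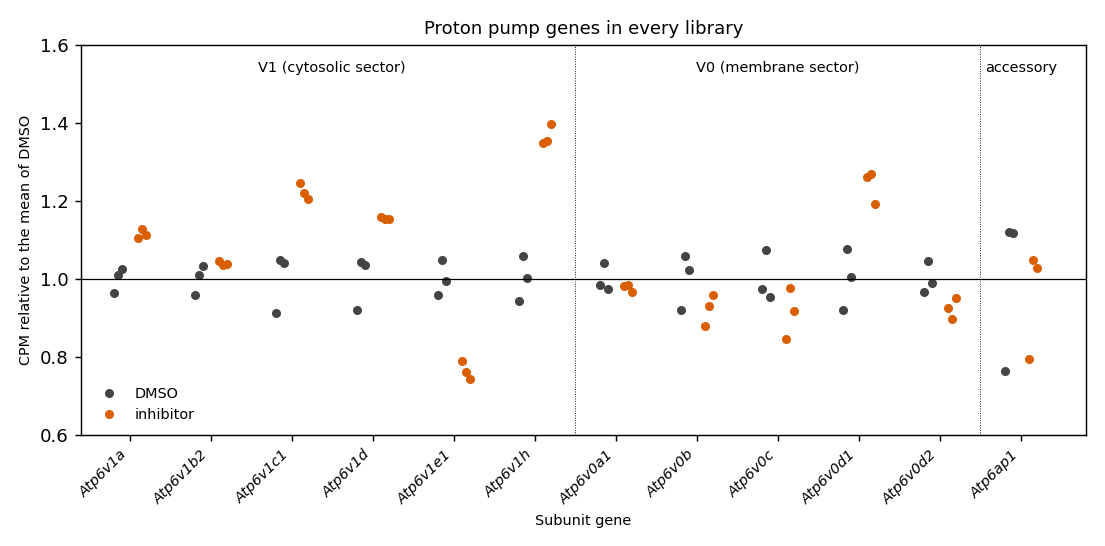
CPM of each proton pump gene in every library, divided by the mean of the 3 DMSO libraries, with V1, V0 and accessory genes set apart. The inhibitor libraries lie above the DMSO libraries for Atp6v1a, Atp6v1c1, Atp6v1d, Atp6v1h and Atp6v0d1, which were called, and for Atp6v1b2, and below them for Atp6v1e1, which was called, and Atp6v0d2, and the vertical axis does not start at 0.

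Levels of the 52 genes per exon length, as CPM per kb, spanned several orders of magnitude. In the DMSO libraries Ctsd stood at 6878 ± 357 CPM per kb, followed by Psap at 4905 ± 365.5, Ctss at 3346 ± 168, Ctsb at 2114 ± 77.1 and Ctsz at 1588 ± 156. Of these 5 genes 4 are cathepsins. With the inhibitor the order of these 5 was the same, and Ctss was at 2167 ± 147.5 CPM per kb and Ctsb at 1866 ± 87.1. The lowest levels were those of Sgsh (2.55 ± 0.282), Ctsf (1.37 ± 0.149) and Ctse (0.358 ± 0.1085) with DMSO. Ctsd, Psap and Ctsb alone held 60.7% to 60.9% of the summed CPM of the 52 genes in DMSO libraries and 61.2% to 62.0% in inhibitor libraries. The summed CPM of the pump genes was 6.55% to 6.63% of that of all 52 with DMSO and 7.22% to 7.66% with the inhibitor, and that of the glycosidases and sulfatases was 4.93% to 5.2% and 4.45% to 4.47%.

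**Figure D4:**
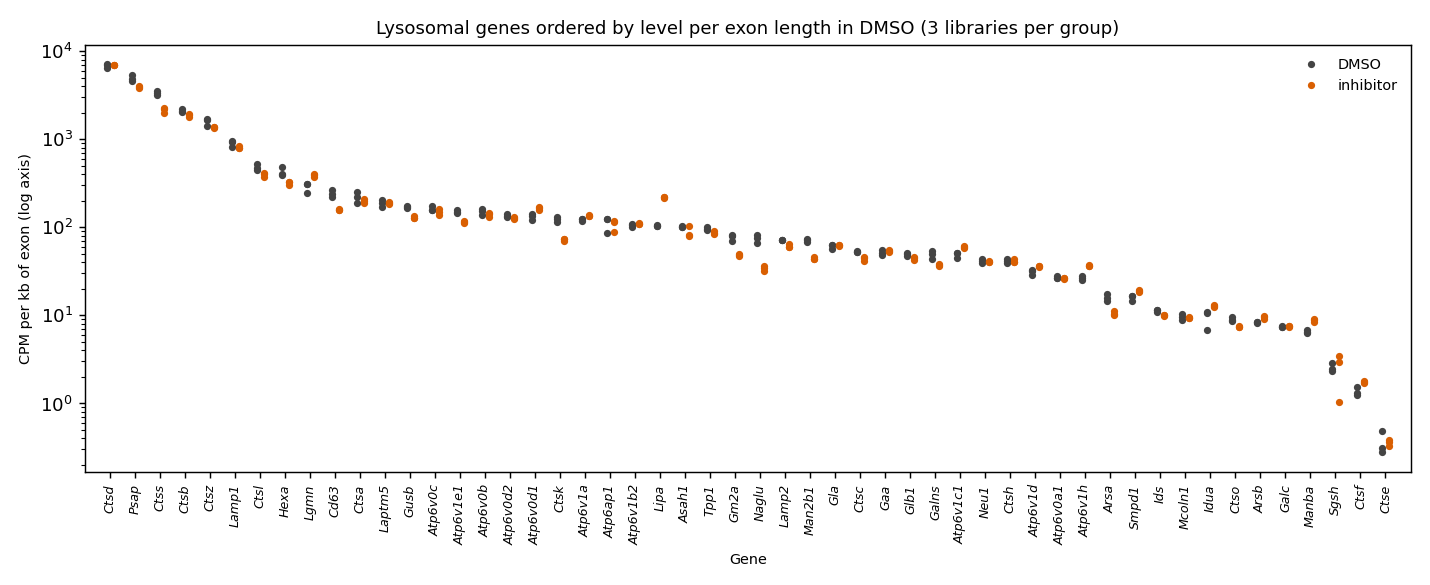
Level of each of the 52 genes as CPM per kb of exon on a log axis, ordered by the DMSO mean, with 1 point per library. Ctsd leads at 6878 CPM per kb and Ctse is last at 0.358, and most shifts between the groups are small beside the range of levels.

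A list of 97 other lysosomal genes, of which 88 were tested, was examined in the same fit: 25 rose and 31 fell, and with library totals 37 rose and 24 fell. The share called was 63.6%, against 51.5% of all tested genes (24.9% higher and 26.5% lower). With library totals 35.4% of all tested genes were higher and 20.6% lower. Of 27 further hydrolases and lumen proteins 12 fell and 7 rose, and with library totals 10 fell and 9 rose. Acp5, tartrate-resistant acid phosphatase and also an osteoclast marker, fell from 629 ± 59.6 to 368 ± 11.1 CPM (log2 fold change −0.78, adjusted p = 4.42e-05). The hyaluronidase Hyal1 rose from 2.90 ± 0.620 to 16.95 ± 1.67 CPM (2.55, adjusted p = 6.54e-06), with exons shared with Naa80 and Hyal3 on its strand.

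Of 25 further genes of lysosomal membrane proteins and transport, 11 rose and 7 fell, against 24.9% and 26.5% of all tested genes. With library totals 14 rose and 4 fell, against 35.4% and 20.6% of all tested genes. Most of the list are transporters and channels, and it also holds other membrane proteins such as Cd68, Scarb2 and Glmp. The calcium and sodium channel gene Tpcn2 rose from 87.5 ± 4.21 to 148 ± 13.4 CPM (0.76, adjusted p = 5.48e-05), and the chloride-proton exchanger Clcn7 fell from 1058 ± 28.1 to 607 ± 15.35 CPM (−0.80, adjusted p = 2.71e-06). Ostm1, the partner protein of Clcn7, was at 93.7 ± 4.35 and 94.1 ± 0.203 CPM and was not called, although with library totals it was called higher (0.11, adjusted p = 0.0464). Npc1, the membrane protein that passes cholesterol out of the lysosome, rose (0.52, adjusted p = 2.38e-05), as Lipa did, while Npc2, its soluble partner, fell (−0.28, adjusted p = 0.00359). The cystine exporter Ctns rose as well (0.65, adjusted p = 1.84e-05). Npc1, Npc2, Ostm1 and Ctns were named after their values had been seen.

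Of the other pump subunits 1 of 8 tested rose and 4 fell, and with library totals 2 rose and 4 fell. The share called was 62.5%, against 51.5% of all tested genes. Tcirg1, the a3 subunit of V0, rose from 577 ± 40.55 to 654 ± 32.75 CPM (0.18, adjusted p = 0.038), a call that was lost without DMSO replicate 1 or 3 or inhibitor replicate 1 or 2 (adjusted p = 0.0758 to 0.138). The largest fall was that of the scarce neuronal-type subunit Atp6v1g2, from 2.26 ± 0.898 to 0.798 ± 0.216 CPM (−1.48, adjusted p = 0.00897). Counting all 20 pump genes that were tested, the 12 and these 8, there were 6 rises and 5 falls, and with library totals 8 and 5. Among 9 sorting genes 1 rose and 1 fell (22.2% called, against 51.5% of all tested genes), and with library totals 4 rose and none fell. The cation-dependent mannose 6-phosphate receptor M6pr rose (0.18, adjusted p = 0.0239). Gnptab, which makes the mannose 6-phosphate tag, fell (−0.24, adjusted p = 0.00323). The call of M6pr was lost without DMSO replicate 3 or inhibitor replicate 1 or 2 (adjusted p = 0.0509 to 0.0779), and that of Gnptab with library totals (adjusted p = 0.0674).

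Among transcription factors of the lysosome, Tfeb was at 35.0, 38.4 and 34.4 CPM with DMSO and 17.1, 19.1 and 20.5 CPM with the inhibitor. It fell without overlap (log2 fold change −0.93, SE 0.084, adjusted p = 4.99e-05). Mitf fell slightly (−0.17, adjusted p = 0.0116), but was not called with library totals (−0.06, adjusted p = 0.311) or without inhibitor replicate 1 (adjusted p = 0.0549). Tfe3 was not called (0.05, adjusted p = 0.404), or was called higher with library totals (0.16, adjusted p = 0.0255). Tfec ranged from 41.3 to 72.3 CPM within the inhibitor libraries and was not called (0.04, adjusted p = 0.871). Of the 15 genes of transcription and nutrient control 5 rose and 4 fell, and with library totals 7 rose and 3 fell. The share called was 60.0%, against 51.5% of all tested genes. Fnip2, a partner of folliculin in the nutrient-sensing complex on the lysosome, rose from 196 ± 6.36 to 365 ± 5.67 CPM (0.90, adjusted p = 1.54e-06). The activity of these factors depends on phosphorylation and location in the cell, which mRNA levels do not measure.

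Inhibitors of cathepsins were lower: of 4 tested 3 fell and Serpinb6a was not called, although it was called higher with library totals (0.30, adjusted p = 0.035) and without DMSO replicate 3 (0.31, adjusted p = 0.0232). The share called was 75.0%, against 51.5% of all tested genes, of which 26.5% were lower. Cst7, cystatin F, fell from 4.22 ± 0.402 to 0.733 ± 0.265 CPM (−2.52, adjusted p = 6.47e-05). Cst3, cystatin C, fell by 1.01 on the log2 scale and Cstb, cystatin B, by 0.40. These cystatins fell in the same libraries as 7 of 9 cysteine cathepsins.

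**Figure D5:**
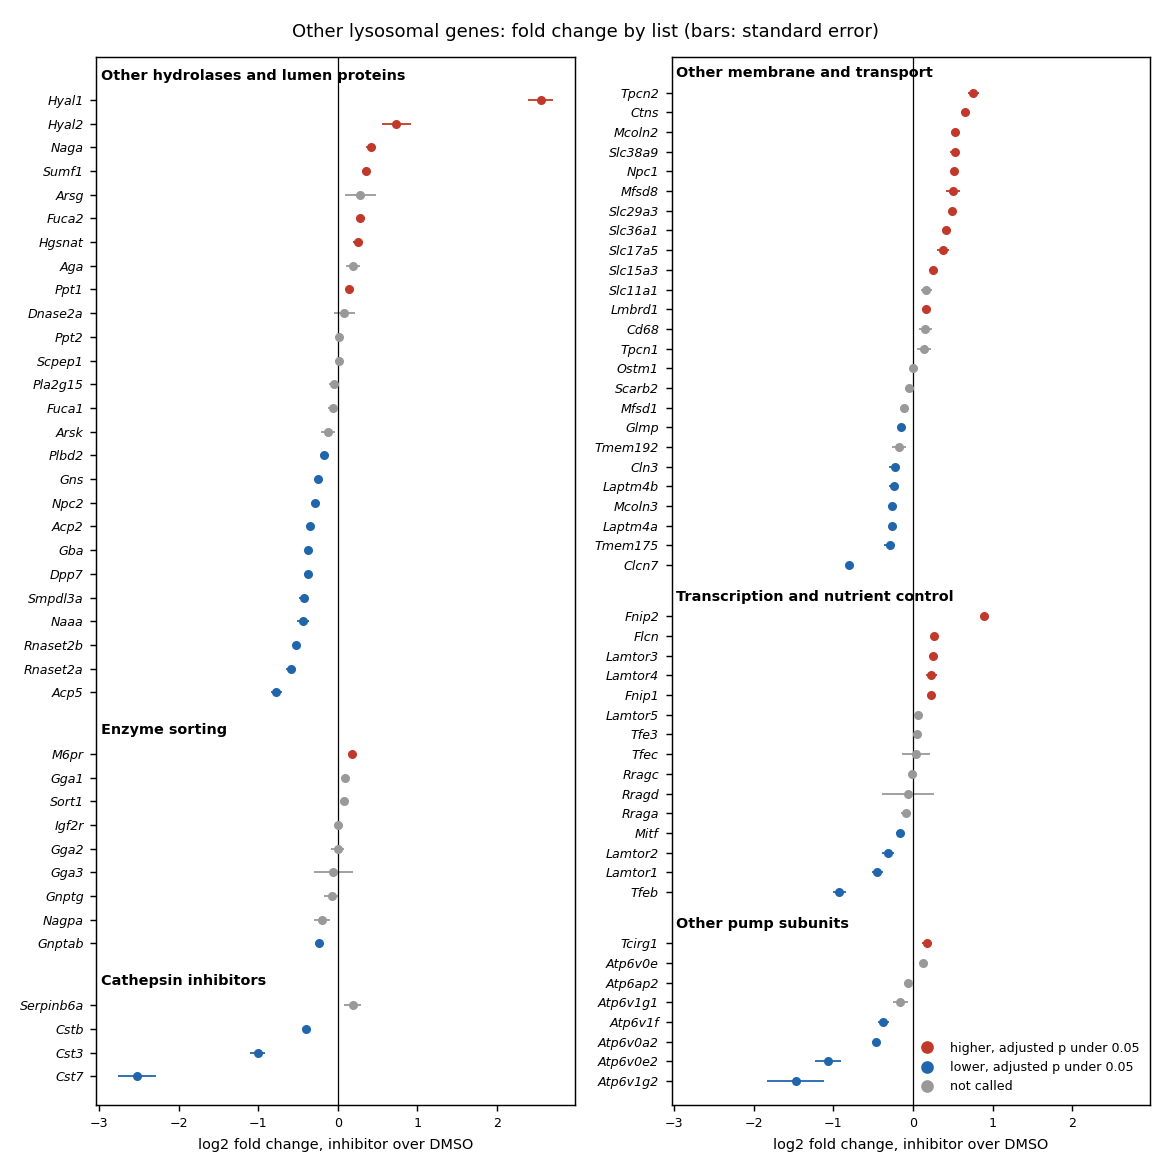
Log2 fold change of inhibitor over DMSO for tested genes of the 6 lists of other lysosomal genes (88 in all, of which 1 is not drawn), with bars for the standard error and colour for the call in edgeR with TMM scaling. Membrane and transport genes lie mostly right of 0 (11 higher, 7 lower) and further hydrolases mostly left of it (7 higher, 12 lower), and library totals alone give 37 higher and 24 lower over the 6 lists.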

How the data were processed

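The authors deposited raw read counts, 1 table with a row for each Ensembl gene and a column for each of the 6 libraries. The submitters' processing notes list mm10 and the tools StringTie 1.3.0, HISAT2 and edgeR without their roles. No source used here says how reads were counted, whether strand was used, or how reads matching several places were treated. Symbols were matched for 34267 of 34745 genes. Coordinates and exon lengths were taken from a GENCODE annotation of mm10, and library totals were 18441352 to 25089320 counts.

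Differences were tested with edgeR 4.0.16 (quasi-likelihood F-test, R 4.3.3). Libraries were scaled by TMM, genes were kept by filterByExpr at a minimum count of 10, pretreatment was the only factor, and p-values of the 13815 genes were adjusted by Benjamini-Hochberg. Fold changes are inhibitor over DMSO, and each SE was derived as the absolute log2 fold change divided by the root of F. The procedure was tested on simulated data in which 200 of 13815 genes were changed. In the deposited data 7113 genes (51.5%) were called, so the simulation cannot show whether the scaling holds here. Replicates differed by more than sampling noise (chi-square per degree of freedom 8.77 to 13.5 within groups). A count of 0 allowed up to 0.12 to 0.163 CPM, taking 3 counts as the limit, for counting error only.

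The lysosomal genes and all lists were chosen with earlier results of these data known. Values of every library are given for the 2 largest rises and falls of each class among called genes whose groups do not overlap and for the most abundant gene per exon length. Other lists give the largest change in each direction, Tfeb, Tfe3, Mitf and Tfec. Other genes given with single-library values were added after their values were seen. Promoters are from RefSeq. Alternatives were other scalings, filters, DESeq2 1.42.0, a replicate block, a threshold of 0.01 and leaving out each library. Values of some single genes are not reported here.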

Additional observations from a re-analysis of the deposited data

How the results depend on the processing

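All 33 called lysosomal genes kept their direction in every setting run. Of these, 7 of 12 rises and 14 of 21 falls were called in all of them, and Lipa, Naglu, Ctsk, Ctss and Atp6v1h were among these. Scaling by library totals shifted the median of all genes by 0.11 on the log2 scale, and 5 proteases and 1 membrane protein were lower and 5 glycosidases or sulfatases higher, with 4888 of all genes higher and 2842 lower. With DESeq2 1 protease was higher. At a threshold of 0.01, 4998 of all genes (36.2%) were called in either direction. Of the 33 lysosomal calls 11 were lost, and at least 14 of the 21 falls were kept. At this threshold 2257 genes, 7 lysosomal genes, 1 protease, 1 glycosidase or sulfatase and 3 pump genes were higher, and 4 proteases lower. Leaving out single libraries gave 1 to 2 higher and 5 to 9 lower proteases, and 1 to 3 lower pump genes. The value of 3 came without DMSO replicate 1, and 5 lower proteases came without DMSO replicate 3, inhibitor replicate 1 or inhibitor replicate 3.

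Signs changed only for genes that were not called, and the cause was not tested. With library totals log2 fold changes became 0.0948 for Ctse, 0.083 for Neu1, 0.0768 for Sgsh, 0.0782 for Mcoln1, 0.0772 for Atp6v0a1 and 0.0479 for Atp6ap1. Galc was at −0.00265 with median-of-ratios factors, −0.00237 with genes of at least 5 CPM and −0.00157 with DESeq2. Leaving out single libraries gave −0.0223 to 0.05 for Ctsd, −0.158 to 0.26 for Ctse, −0.0231 to 0.047 for Ctsh, −0.0144 to 0.0558 for Gla, −0.0778 to 0.0113 for Neu1, −0.345 to 0.336 for Sgsh, −0.014 to 0.0156 for Galc, −0.0891 to 0.0184 for Mcoln1, −0.0743 to 0.0689 for Laptm5 and −0.232 to 0.0534 for Atp6ap1.

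With the replicate number as a block, 48.7% of genes were called, with 12 lysosomal genes higher and 20 lower, Ctsb was not called (adjusted p = 0.0545) and Ctse was at 0.0105. Deviations of same-numbered libraries correlated at −0.0337, −0.00297 and 0.0243, within the range of differently numbered libraries (−0.0378 to 0.0409). No shared deviation by number was seen, but this cannot show whether same-numbered libraries had a common origin, which the labels do not give. Depth limits what can be said of Ctse, with under 2 CPM in every library.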

Other observations

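A few lysosomal genes had 1 library far from the others of its group. Sgsh, the sulfamidase of heparan sulfate breakdown, was at 15.2, 4.60 and 13.1 CPM in the inhibitor libraries and at 12.7, 10.9 and 10.3 CPM with DMSO. Rragd, a Rag GTPase of the nutrient-sensing complex, was at 12.5, 11.7 and 29.4 CPM with the inhibitor and at 16.9, 19.1 and 19.8 CPM with DMSO. Tfec was at 72.3, 41.3 and 51.8 CPM with the inhibitor and at 52.2, 55.5 and 53.4 CPM with DMSO. The library that stood apart was not the same in these genes, and its cause was not tested.

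Among DMSO libraries, replicate 2 was the highest for 38 of the 52 lysosomal genes and replicate 1 the lowest for 42. Among inhibitor libraries no such order was as marked, with replicate 2 the highest for 26 and replicate 3 the lowest for 26.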
